A study of Mus musculus with 2 samples.

Results

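The genes described here are 40 genes of cell division in the mouse, 20 of DNA replication and 20 of mitosis, chosen by name and looked up in the deposited tables of 2 RNA sequencing libraries. The genes were chosen with earlier results of these data known. Together they are 40 of the 17333 genes listed in either table, and all 40 had reads in both. The cells were sorted fresh from mammary glands of adult virgin animals at 8 weeks of age with a gate for vascular endothelium, without lineage markers and with CD105, CD31 and Sca1 on the surface. The sorted cells were divided by surface Procr, the protein C receptor of endothelium, into 1 Procr-positive and 1 Procr-negative library, and the sources used here name no strain, genotype or number of animals. Each group is a single library, so the spread between animals is unknown and no test was run.

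Before a cell divides it copies its DNA in S phase and separates the copies in mitosis, and each step is run by its own set of proteins. The MCM proteins form the ring-shaped helicase that opens the double helix, and polymerases, the sliding clamp PCNA and the enzymes that make deoxynucleotides follow it. Cyclin B with CDK1 then starts mitosis, the Aurora and Polo-like kinases build the spindle, and the anaphase-promoting complex ends it by marking cyclins for destruction. E2F factors drive many replication genes around the start of S phase, whereas many mitosis genes are switched on later through the CHR promoter element bound by the MuvB complex. Some replication proteins, PCNA among them, also serve in DNA repair. Endothelium of the adult is mostly at rest.

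Unique reads numbered 9.22 M in the Procr-positive and 9.565 M in the Procr-negative library. Levels are given as RPKM, reads per kb of gene length and per M unique reads, as the authors deposited them. Procr itself, the gene of the sort, was at 1321 RPKM in the former and 147 RPKM in the latter. All 20 pan-endothelial markers were listed in both libraries, with a summed level of 4987 RPKM with Procr and 467 RPKM without. All 15 luminal and general epithelial markers were also listed in both, and their summed level was 839 RPKM in the Procr-positive library but 19182 RPKM in the other, although both were sorted with an endothelial gate. Among them Krt8, a keratin of luminal cells, was at 262 and 5941 RPKM, while Pecam1, which encodes CD31 itself, was at 712 and 52.7 RPKM. The markers of the Procr-negative library thus go against its endothelial label, and which cells made up most of its RNA is unresolved. The summed level of 12 pericyte and smooth muscle markers was 1599.6 against 202 RPKM, and of 8 fibroblast markers 204 against 737 RPKM. Of 12 leukocyte markers 1 had no read in either library, and their sums were 75.02 and 30.9 RPKM. The 5 basal epithelial markers summed to 91.3 and 165.6 RPKM, and the erythroid markers, of which 3 of 8 had no read in each library, to 24.2 and 31.1 RPKM. Every difference below lies between libraries that also differ in these markers, whose part in it was not tested, and in bulk RNA fewer dividing cells and less RNA per cell cannot be told apart.

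The mitosis genes were lower in the Procr-positive library without exception, whereas the replication genes split. Read ratios, scaled to the total unique reads, were below 1 for 20 of 20 mitosis genes, and the 95% counting interval (exact conditional binomial, covering counting error only) lay below 1 for all 20. Among the 12509 genes that reached 1 RPKM in either library or both, 55.2% had an interval below 1 and 26.7% an interval above 1. Of the 20 replication genes 8 had an interval below 1, 6 an interval above 1 and 6 an interval that held 1. A gene was called higher or lower when it differed at least 2-fold on the log2(RPKM + 1) scale, Procr-positive over Procr-negative, a scale that understates the differences of low genes. Of all genes past the 1 RPKM filter, 13.1% were called higher and 23.7% lower, and with TMM scaling, which rests on the bulk of genes rather than the read total, 17.7% were called higher and 15.4% lower. Of the mitosis genes 12 of 20 were called lower and 0 higher, with a median log2 ratio of −1.26. Of the replication genes 6 of 20 were called lower and 3 higher, with a median of −0.04. The median over all genes past the filter was −0.38, and relative to it the mitosis median stood at −0.88 and the replication median at 0.34. The replication shares, 15% higher and 30% lower, were near those of all genes. The replication median turned positive, between 0.24 and 0.34, under each of 4 other scalings, while the difference between the lists, mitosis minus replication, was −1.21 and stayed between −1.21 and −2.17 under 8 other settings. Of the mitosis genes 19 passed the filter, 10 of them only through the Procr-negative library, so the count of calls is a description and not a test. All 20 mitosis genes lay below the replication median.

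**Figure D1:**
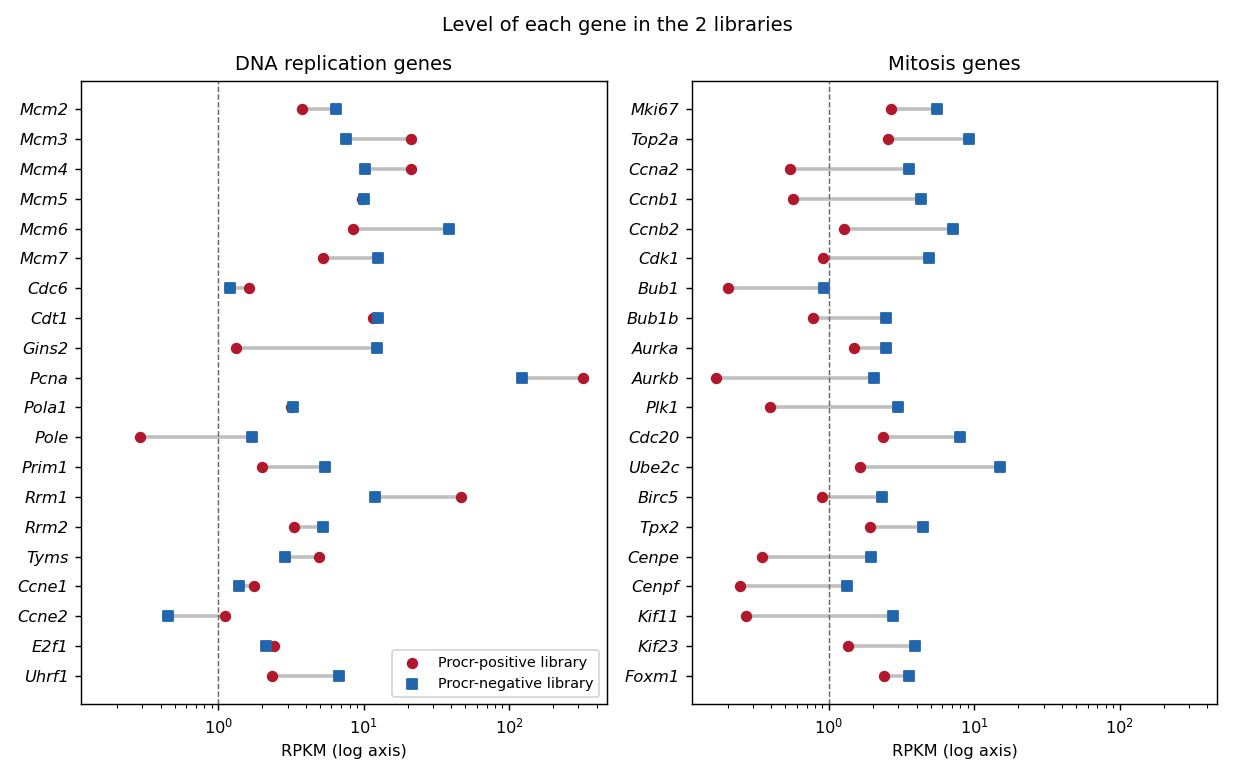
Level of the 20 DNA replication genes (left) and 20 mitosis genes (right) in the Procr-positive library (red circles) and the Procr-negative library (blue squares), as RPKM on a log axis, 1 library a group; the dashed line marks 1 RPKM. All 20 mitosis genes lie lower in the Procr-positive library, and 11 of them lie under 1 RPKM there, while Pcna, Rrm1, Mcm3 and others lie higher.

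Summed over the list, the mitosis genes reached 22.9 RPKM with Procr and 88.6 RPKM without, from 872 and 2915 reads. This is 3.22-fold more reads in the Procr-negative library (interval 2.99 to 3.48). The replication genes summed to 473 and 276 RPKM in the same order, and Pcna alone made up 67.9% and 44.5% of these sums. Without Pcna the sums were 152 and 153 RPKM. Mitosis levels thus amounted to 15.1% of the replication sum without Pcna in the Procr-positive library and to 58.0% in the Procr-negative library.

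The highest mitosis gene of the Procr-positive library was Mki67, at 2.69 RPKM, and 12 of the 20 replication genes exceeded it there. In the Procr-negative library the highest was Ube2c, at 15.0 RPKM, and only Mcm6 and Pcna exceeded it. Across genes of the same list, the order of RPKM in the libraries had a Spearman correlation of 0.72 for the 20 replication genes and 0.75 for the 20 mitosis genes, a description over genes that share libraries and are not replicates. The median mitosis gene stood at percentile 30.1 of the genes listed in the Procr-positive library and at percentile 45.5 in the Procr-negative library. The median replication gene stood at percentiles 50.5 and 55.9.

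Promoter sequence, which owes nothing to the reads, was searched for motifs in both lists. RefSeq promoter windows of GRCm38.p6, from 250 bases before to 50 after the annotated start, were at hand for 32 of the 40 genes, 16 of each list. Mcm4, Gins2, Pole, Ccne2, Ccna2, Aurkb, Tpx2 and Foxm1 had none. The CHR core was searched as TTTGAA, the CCAAT box as CCAAT and E2F-type sites as TTTCGCGC or TTTGGCGC, each on both strands. TTTGAA was found for 12 of 16 mitosis genes and for 1 of 16 replication genes, against 20.2% of 27025 genes in the promoter table and 14.2% of those past the 1 RPKM filter. An E2F-type match was found for 7 of 16 replication genes and 1 of 16 mitosis genes, against 0.929% of all genes and 1.79% of those past the filter. CCAAT was found for 15 of 16 mitosis and 11 of 16 replication genes, against 41.1% of all genes. All 12 mitosis promoters with TTTGAA also held CCAAT, which 15 of the 16 mitosis promoters held in any case. In 8 of the 12 a TTTGAA began within 60 bases before and 20 after the start. Neither the pairing nor the position was counted over all genes. Counted over all windows rather than genes, TTTGAA was in 17.9% of 32851 windows, CCAAT in 37.4% and an E2F-type match in 0.813%. The other mitosis genes held TTTGAA in 24 of 39 cases and an E2F-type match in 2 of 39, and the other replication genes in 8 of 39 and 6 of 39. A match is a run of letters and not a bound site.

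The stretches printed here end where the gene's annotation begins, which in Top2a and Mcm5 lies before the start used for the window, and show these matches in mitosis genes that were called lower, written 5′ to 3′ on the gene's strand with every match in capitals (those found on the opposite strand appear as their reverse complement). Ube2c is on the plus strand at chr2:164769769-164769928, Cdk1 on the minus strand at chr10:69352913-69353072, Kif11 on the plus strand at chr19:37376222-37376381, Cdc20 on the minus strand at chr4:118437344-118437503 and Top2a on the minus strand at chr11:99024200-99024349, all in GRCm38.p6.
Ube2c: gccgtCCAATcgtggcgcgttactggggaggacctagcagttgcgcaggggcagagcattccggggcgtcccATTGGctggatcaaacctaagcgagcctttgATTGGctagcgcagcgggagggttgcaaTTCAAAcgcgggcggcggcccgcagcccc
Cdk1: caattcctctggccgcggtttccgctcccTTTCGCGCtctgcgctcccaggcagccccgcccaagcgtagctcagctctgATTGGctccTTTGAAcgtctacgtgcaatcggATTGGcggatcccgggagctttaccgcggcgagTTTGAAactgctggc
Kif11: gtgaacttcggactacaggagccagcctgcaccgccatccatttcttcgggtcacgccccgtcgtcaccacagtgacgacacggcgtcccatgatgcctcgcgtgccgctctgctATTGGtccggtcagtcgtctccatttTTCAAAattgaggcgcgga
Cdc20: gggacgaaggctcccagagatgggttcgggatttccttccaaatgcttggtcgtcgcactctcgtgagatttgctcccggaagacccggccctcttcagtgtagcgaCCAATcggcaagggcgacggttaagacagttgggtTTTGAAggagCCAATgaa
Top2a: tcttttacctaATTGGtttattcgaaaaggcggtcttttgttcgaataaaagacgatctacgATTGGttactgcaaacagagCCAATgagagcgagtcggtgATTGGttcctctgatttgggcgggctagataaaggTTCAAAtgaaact
Each holds at least 1 CCAAT upstream of a TTTGAA, which begins 29 bases before the window's start site in Ube2c, 15 in Cdk1, 19 in Kif11, 18 in Cdc20 and 23 in Top2a. In the other mitosis genes called lower that held it, TTTGAA began at position 31 in Plk1, 3 in Kif23, and −167 and 5 in Ccnb2. Mcm2, the only replication gene with TTTGAA, held it at −70 and CCAAT at −175. Cdk1, alone among the mitosis genes searched, also held an E2F-type match, 131 bases before its start.

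The replication promoters printed for comparison are those of Mcm6 (minus strand, chr1:128359706-128359865), called lower, Mcm5 (plus strand, chr8:75109349-75109467), whose ratio held 1, and Pcna (minus strand, chr2:132253181-132253340) and Rrm1 (plus strand, chr7:102441535-102441694), called higher.
Mcm6: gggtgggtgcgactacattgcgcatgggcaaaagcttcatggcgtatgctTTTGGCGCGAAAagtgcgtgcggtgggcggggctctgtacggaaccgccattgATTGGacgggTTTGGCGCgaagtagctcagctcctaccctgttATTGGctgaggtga
Mcm5: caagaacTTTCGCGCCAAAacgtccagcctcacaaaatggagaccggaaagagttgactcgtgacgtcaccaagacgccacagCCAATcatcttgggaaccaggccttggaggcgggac
Pcna: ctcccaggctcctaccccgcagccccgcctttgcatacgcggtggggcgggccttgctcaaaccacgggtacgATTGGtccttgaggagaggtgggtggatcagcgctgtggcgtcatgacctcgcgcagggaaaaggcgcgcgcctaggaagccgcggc
Rrm1: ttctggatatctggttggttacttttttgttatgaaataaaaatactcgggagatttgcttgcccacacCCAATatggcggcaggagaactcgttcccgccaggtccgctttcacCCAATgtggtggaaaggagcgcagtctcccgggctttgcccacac
Mcm6 and Mcm5 each hold TTTGGCGC and TTTCGCGC overlapping on opposite strands, and Mcm6 a further TTTGGCGC 47 bases before its start. In the Pcna and Rrm1 windows neither E2F-type spelling was found, which says only that these letters are not in the window. Of the 7 replication genes with an E2F-type match 3 were called lower (Mcm6, Mcm7 and Uhrf1) and 1 higher (Mcm3), with a median log2 ratio of −0.11, and of the 9 without one 1 was called lower (Prim1) and 2 higher (Pcna and Rrm1), with a median of 0.21. The 12 mitosis genes with TTTGAA had log2 ratios from −2.61 to −0.48, with a median of −1.46, and 8 of them were called lower. The 4 without it (Birc5, Bub1, Ccnb1 and Cenpe) ranged from −1.76 to −0.68, with a median of −0.97, and 2 were called lower. With only 4 genes without it, this difference was not tested.

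**Figure D2:**
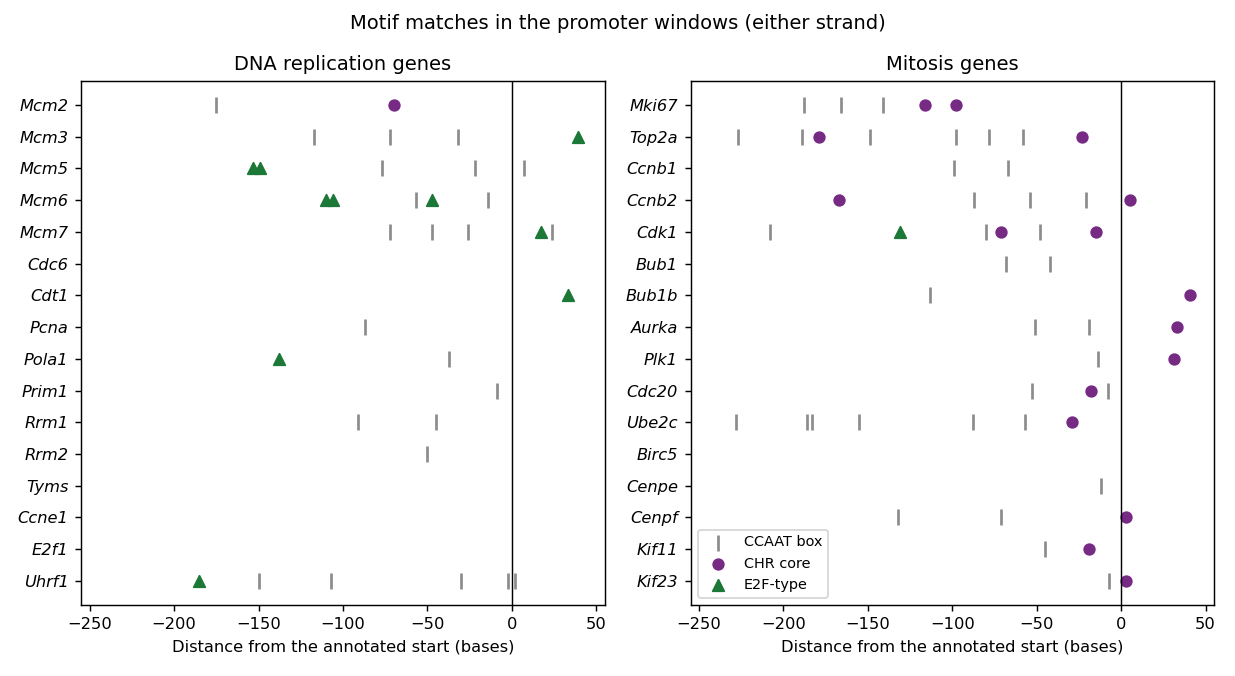
Positions of motif matches, on either strand, in the promoter windows of 16 replication genes (left) and 16 mitosis genes (right); the x axis is the distance in bases from the annotated start (vertical line), grey bars are CCAAT, purple circles TTTGAA (CHR core) and green triangles TTTCGCGC or TTTGGCGC (E2F-type). Where a gene has several windows, as for Mcm7 and Uhrf1, matches of all are drawn. TTTGAA appears in 12 mitosis genes and 1 replication gene, and E2F-type matches in 7 replication genes and 1 mitosis gene.

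The cyclins and Cdk1, which together form the kinase that starts mitosis, were called lower in all 4 cases, against 23.7% of all genes past the filter. Ccna2, Ccnb1 and Cdk1 passed that filter only through the Procr-negative library and lost the call at a 5 RPKM filter. Ccnb1, cyclin B1 (chr13:100778739-100786486), was at 0.56 RPKM from 12 reads in the Procr-positive library and at 4.29 RPKM from 95 reads in the Procr-negative library, 7.63-fold higher in the latter (4.17 to 15.3). Ccnb2, cyclin B2, was at 1.27 RPKM from 18 reads and 7.12 RPKM from 105 reads, 5.62-fold (3.39 to 9.85). The intervals of the cyclin B genes overlap. Cdk1, the catalytic partner of the cyclins, was at 0.91 against 4.90 RPKM, 5.38-fold (3.47 to 8.69), from 24 and 134 reads. Ccna2, cyclin A2, which acts from S phase into mitosis, had 14 and 96 reads, 0.54 and 3.55 RPKM, and was 6.61-fold higher in the Procr-negative sample (3.75 to 12.5). Exons of Exosc9 on the opposite strand, with 76 and 92 reads, overlap 12.5% of its exon bases. Reads summed over the cyclins and Cdk1 were 6.10-fold higher in that library (4.71 to 7.99).

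The partners of the anaphase-promoting complex were both called lower. Ube2c (chr2:164769929-164772902), the ubiquitin-conjugating enzyme that works with this complex, had the lowest log2 ratio of the mitosis genes, −2.61. It was covered by 14 reads (1.63 RPKM) against 134 reads (15.0 RPKM), 9.23-fold higher in the Procr-negative sample (5.31 to 17.3). Exons of Tnnc2, a troponin gene, overlap 22.8% of the Ube2c exon bases on the opposite strand, but Tnnc2 had only 4 and 5 reads. Cdc20, which activates the complex at the step from metaphase to anaphase, was at 2.36 against 7.93 RPKM, 3.36-fold (2.34 to 4.93). Exons of Elovl1 on the opposite strand, with 619 and 940 reads, overlap 2.84% of the Cdc20 exon bases.

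Kinases and checkpoint genes were all lower, at small read numbers. Aurkb, the Aurora kinase of the chromosomal passenger complex, rested on 3 reads against 38 and was 12.2-fold higher in the Procr-negative library with a wide interval (3.87 to 61.8). Plk1, Polo-like kinase, had 8 against 63 reads, 0.39 and 2.99 RPKM, a 7.59-fold difference (3.63 to 18.3). Both were called lower, having passed the filter only through the Procr-negative library. Bub1b, which encodes the checkpoint kinase BubR1, lay just short of the call at −0.98 on the log2 scale, with 26 and 87 reads (3.23-fold, 2.06 to 5.21). Bub1, its relative, did not reach 1 RPKM in either library, with 8 reads at 0.20 RPKM and 38 reads at 0.92 RPKM, and was therefore not called, although its reads were 4.58-fold higher in the Procr-negative sample (2.10 to 11.4). Aurka, the Aurora kinase of the centrosome, differed least in this group, at 1.48 against 2.47 RPKM (1.67-fold, 1.01 to 2.82).

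Among 6 genes of the spindle, kinetochore and midbody, 3 were called lower, of which Kif11 and Cenpe passed the filter only through the Procr-negative library. Kif11, the motor that pushes spindle poles apart, was at 0.27 RPKM from 12 reads in the Procr-positive library and at 2.74 RPKM from 127 reads in the Procr-negative library, 10.2-fold higher in the latter (5.64 to 20.3). The kinetochore motor gene Cenpe had 25 against 146 reads, 5.63-fold (3.67 to 8.98), and Kif23, a motor of the midbody, 43 against 129 reads, 2.89-fold (2.03 to 4.18). Cenpf, a large kinetochore protein gene of 11130 bases, showed how the pseudocount bears on low genes. Its reads were 5.44-fold higher in the Procr-negative sample (3.54 to 8.69), close to Cenpe, but its levels of 0.24 and 1.32 RPKM gave a log2 ratio of −0.90 and no call. Tpx2, which recruits Aurora A to the spindle, was at 1.91 against 4.45 RPKM (2.33-fold, 1.78 to 3.08), and Birc5, survivin of the passenger complex, at 0.89 against 2.30 RPKM (2.58-fold, 1.65 to 4.14), and neither was called.

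The remaining mitosis genes had the most reads of the list in the Procr-positive library, and 1 of 3 was called. Top2a, the topoisomerase that untangles sister chromatids, was at 2.56 RPKM from 123 reads against 9.12 RPKM from 455 reads, 3.57-fold higher in the Procr-negative sample (2.92 to 4.39). Mki67, which encodes the Ki-67 antigen used to stain dividing cells, was at 2.69 RPKM from 250 reads against 5.55 RPKM from 536 reads, 2.07-fold (1.78 to 2.41). Foxm1, the transcription factor that acts on mitosis genes with the MuvB complex, had the smallest difference of the list, at 2.40 against 3.55 RPKM (1.48-fold, 1.14 to 1.93). The intervals of Mki67 and Foxm1 lay wholly below those of Ccnb1, Plk1, Kif11 and Ube2c, so the genes did not share a common ratio within counting error.

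**Figure D3:**
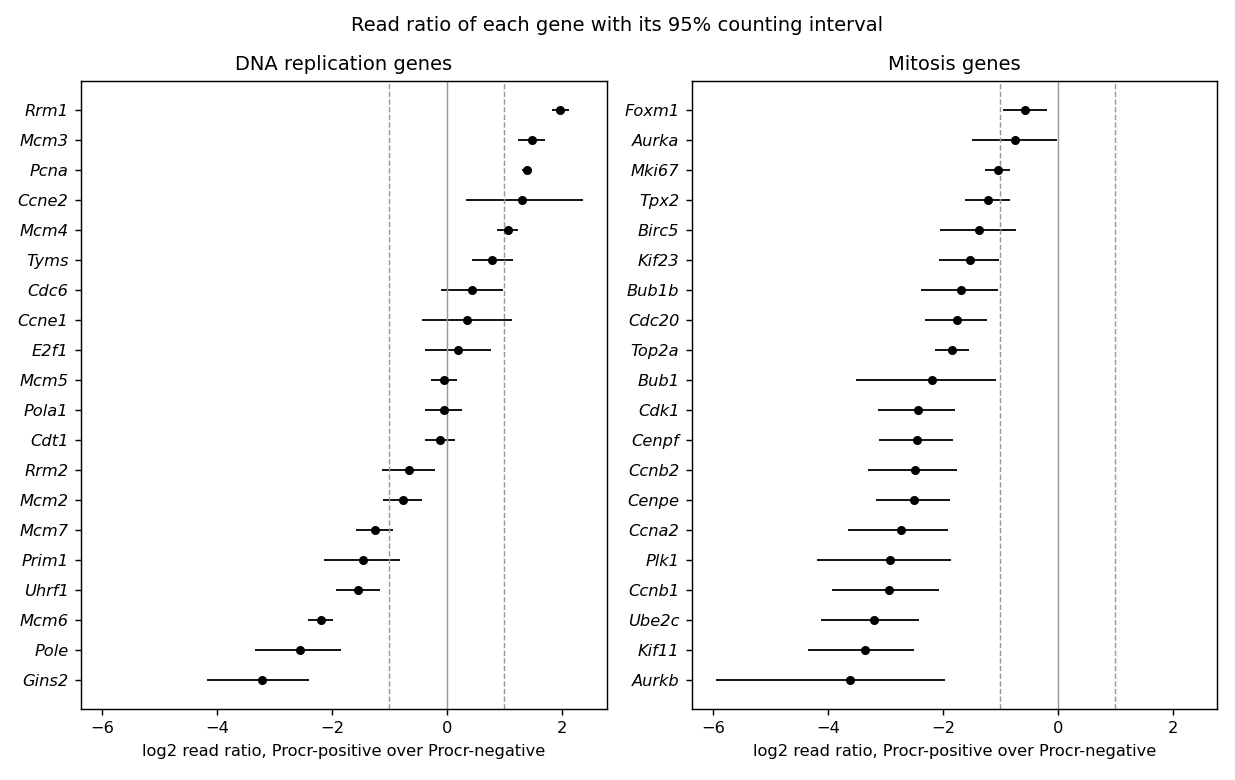
Read ratio of each gene on a log2 axis, Procr-positive over Procr-negative, scaled to total unique reads; points are the ratio of the 2 libraries, lines its 95% counting interval, and dashed lines mark 2-fold. Intervals of all 20 mitosis genes lie below 0, whereas those of the replication genes lie on both sides, from Rrm1 at the top to Gins2 at the bottom.

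Coverage, the share of a gene's listed length that reads covered in the deposited tables, followed the read numbers. The median mitosis gene was covered over 25.8% of its length in the Procr-positive and over 71.3% in the Procr-negative library, and 4 of 20 against 16 of 20 genes were covered over at least 50%. For replication genes the median coverage was 69.1% and 85.5%, and 15 and 16 of 20 were covered over at least 50%. Ccnb1 was covered over 21.9% and 77.9% of its length and Plk1 over 17.8% and 70.9%. In the Procr-positive library 16 of 20 mitosis genes had fewer than 50 reads, against 3 of 20 in the Procr-negative library.

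The replication genes are best read by step, beginning with the helicase. The 6 MCM proteins, Mcm2 to Mcm7, occupy a single hexamer, yet their transcripts did not move together. Mcm3 (chr1:20802966-20820312) was called higher, at 21.2 RPKM from 563 reads in the Procr-positive library against 7.61 RPKM from 210 reads, 2.78-fold (2.37 to 3.27). Mcm6 (chr1:128331575-128359705) went the opposite way, at 8.45 RPKM from 226 reads against 38.7 RPKM from 1075 reads, 4.59-fold higher in the Procr-negative sample (3.97 to 5.32). Mcm6 was the most abundant MCM gene of the Procr-negative library, and Mcm4 and Mcm3 were the most abundant of the Procr-positive library.

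Of the other MCM genes Mcm7 was called lower, at 5.25 against 12.6 RPKM (2.39-fold higher in the Procr-negative sample, 1.92 to 2.995). Exons of Ap4m1, a gene of vesicle transport with 55 and 182 reads, overlap 7.25% of its exon bases on the opposite strand. Those of Cops6, with 238 and 440 reads, overlap 1.45% on that strand. Mcm4 lay just short of the call with a log2 ratio of 0.99, at 21.2 against 10.2 RPKM, 2.08-fold higher in the Procr-positive library (1.83 to 2.37). Mcm5 was at 9.73 RPKM and 10.1 RPKM, a ratio of 0.97 whose interval held 1 (0.83 to 1.13). Mcm2 was 1.71-fold higher in the Procr-negative sample (1.36 to 2.16), at 3.79 against 6.46 RPKM. Between Mcm3 and Mcm6 the ratio thus differed 12.8-fold, and their intervals were far apart.

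Genes of origin licensing and firing held 1 call among 3. Cdt1, which loads the helicase on origins, was at 11.5 RPKM and 12.5 RPKM, with an interval of the ratio that held 1 (0.77 to 1.10). Its partner Cdc6 was at 1.62 and 1.20 RPKM, again with an interval that held 1 (0.93 to 1.97). Gins2, a subunit of the GINS complex that activates the helicase, had the lowest ratio of all replication genes, at 1.33 RPKM from 13 reads against 12.4 RPKM from 126 reads, 9.34-fold higher in the Procr-negative sample (5.27 to 18.03). Annotated exons of Gse1 on the opposite strand overlap 67.3% of the 4097 annotated Gins2 exon bases. The counted length of Gins2 was 1061 bases, and the share of it within Gse1 exons was not measured. No use of strand is given in the sources used here, so reads of shared bases cannot be told apart. Gse1 was at 17.4 RPKM from 1077 reads in the Procr-positive library and at 25.9 RPKM from 1666 reads in the other.

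Among the clamp, primase and polymerases, Pcna stood apart by its level. Pcna (chr2:132249286-132253180), the clamp that holds polymerases on DNA, was at 321 RPKM from 3733 reads in the Procr-positive library and at 123 RPKM from 1478 reads in the Procr-negative library, 2.62-fold higher in the former (2.47 to 2.78). It stood at percentile 98.7 and 96.9 of all listed genes, and processed copies of it in the genome can take reads away under unique mapping, as can copies of Ccnb1, Ccnb2 and Tyms. No search for such copies was run for any member, so others may have them too. Pola1, the catalytic subunit of polymerase alpha, was at 3.14 and 3.26 RPKM, with a ratio of 0.96 (0.77 to 1.21). Prim1, the primase that works in the same complex, was called lower, at 1.98 against 5.46 RPKM (2.75-fold, 1.77 to 4.40). Pole, polymerase epsilon of the leading strand, was at 0.29 RPKM from 19 reads against 1.69 RPKM from 116 reads (5.89-fold, 3.60 to 10.1) and was also called lower, having passed the filter only through the Procr-negative library.

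Nucleotide supply genes held the highest ratio among the replication genes. Rrm1 (chr7:102441695-102469771), the large subunit of ribonucleotide reductase, was at 46.6 RPKM from 1718 reads in the Procr-positive library against 11.9 RPKM from 455 reads, 3.92-fold higher (3.53 to 4.35). Rrm2, the small subunit, whose level is known to follow S phase, was not called and lay the other way, at 3.30 against 5.23 RPKM (1.58-fold higher in the Procr-negative sample, 1.16 to 2.18). Tyms, thymidylate synthase, was at 4.93 against 2.86 RPKM, 1.73-fold higher in the Procr-positive library (1.35 to 2.22), without a call.

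Of 4 regulators of the step from G1 into S phase 1 was called, and the other 3 were under 3 RPKM in both libraries. Uhrf1, which brings the maintenance DNA methyltransferase to new DNA, was called lower, at 2.33 RPKM from 77 reads against 6.80 RPKM from 233 reads (2.92-fold higher in the Procr-negative sample, 2.25 to 3.82). E2f1, an activator of replication genes, was at 2.42 and 2.12 RPKM, with a ratio of 1.14 whose interval held 1 (0.76 to 1.71). Ccne1 and Ccne2, the cyclins E that work with Cdk2, were at 1.77 and 1.11 RPKM with Procr and at 1.40 and 0.45 RPKM without. The interval of Ccne1 held 1 (0.74 to 2.19), and that of Ccne2, on 31 and 13 reads, lay above 1 (1.26 to 5.15), with Ints8 exons on the opposite strand over 17.4% of its exon bases.

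The calls at the ends of the replication list held under every setting. All settings rest on the same reads, for Gins2 13 and 126, and leave its overlap with Gse1 unaddressed. Pcna, Rrm1 and Mcm3 were called higher, and Mcm6 and Gins2 lower, under all 12 other settings tried. In contrast, Mcm7, Pole, Prim1 and Uhrf1 lost their call under each of the scalings that rest on the bulk of genes. Those scalings raise every ratio by construction, so they could remove calls lower but not calls higher. Smaller pseudocounts, no filter and a 1.5-fold call could remove neither. The rule that the interval exclude 2-fold could have removed the calls of Pcna, Rrm1 and Mcm3, and did not. Of the replication genes 9 lay above 0 on the log2 scale under every setting and 8 below 0 under every setting. For 3 (Mcm5, Cdt1 and Pola1) the sign depended on the scaling. A sign above 0 could not be lost through the scalings on the bulk of genes, nor through pseudocounts, filters or call rules. All 20 mitosis genes lay below 0 under all 12 settings. Of their 12 calls 9 held under every setting but the 5 RPKM filter, and those of Cenpe, Kif23 and Aurkb did not, Aurkb losing its call with centring on the median.

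**Figure D4:**
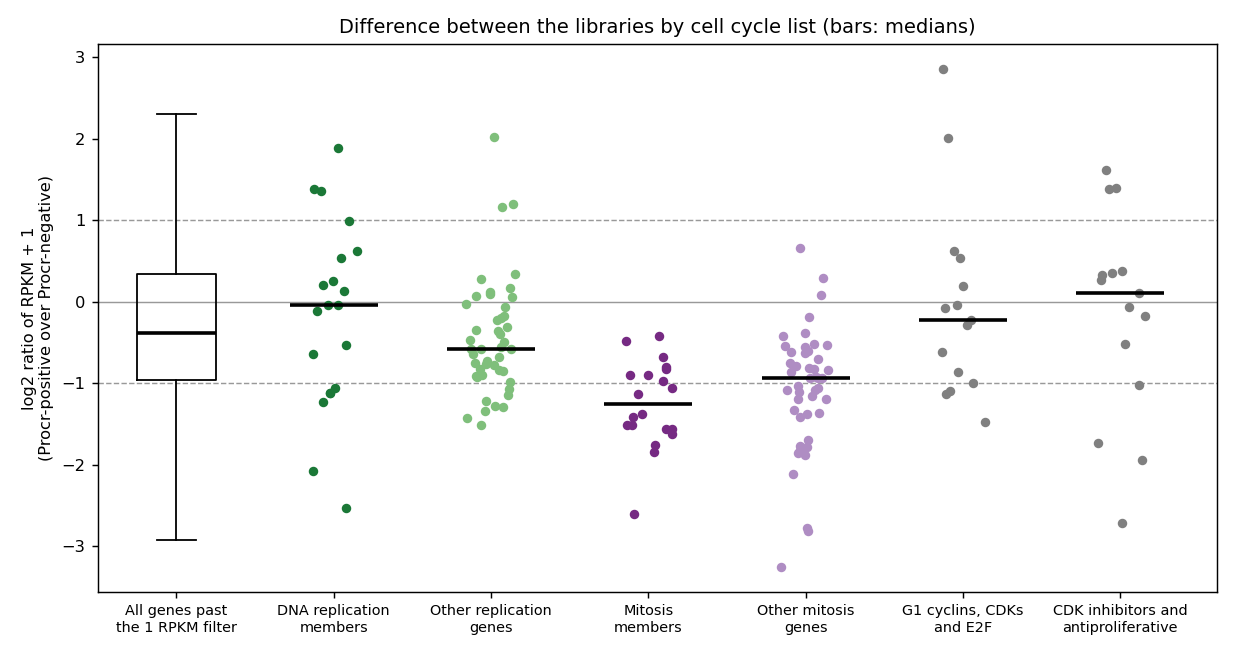
Log2 ratio of RPKM + 1 (y axis, Procr-positive library over the other) for the replication and mitosis members and 4 other cell cycle lists; points are genes, bars are medians, the box spans the quartiles of all genes past the filter with whiskers to the last value within 1.5 interquartile ranges, and dashed lines mark 2-fold. The mitosis members have a median of −1.26 and the other mitosis genes one of −0.94, against −0.04 and −0.58 for the replication lists and −0.38 for all genes past the filter.

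Further genes of both processes are described from lists that were also drawn up with earlier results known. Over all listed genes 17.1% were called lower and 9.48% higher. Of 46 other mitosis genes 22 (47.8%) were called lower and 0 higher, with a median log2 ratio of −0.94. Of the 41 that passed the filter 22 did so only through the Procr-negative library, so this count too is a description. Over all 17333 listed genes the counting interval lay below 1 for 7396 and above 1 for 3681. Of those past the filter 55.2% and 26.7% had such intervals. Among the 46 other mitosis genes it lay below 1 for 42 and above 1 for 1, with 5 that did not pass the filter included. The lowest were Anln, the actin-binding protein of the cleavage furrow, at 0.80 RPKM from 40 reads against 16.2 RPKM from 839 reads (20.2-fold higher in the Procr-negative sample, 14.7 to 28.5), the spindle checkpoint gene Mad2l1 (12 and 188 reads, 15.1-fold, 8.44 to 29.8) and Cdca8, borealin of the passenger complex (4 and 119 reads, 28.7-fold, 10.9 to 107.0). At the upper end stood Cdc25b, a phosphatase that activates Cdk1, at 3.60 against 1.92 RPKM (1.87-fold higher in the Procr-positive library, 1.34 to 2.64), and the condensin genes Ncaph (4.01 and 3.10 RPKM, 0.96 to 1.76) and Smc4 (17.2 and 16.3 RPKM, 0.95 to 1.18), whose intervals held 1. None of these 3 was called.

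Of 46 other replication genes 3 were called higher and 8 lower, with a median of −0.58. It was also −0.58 over the 43 past the filter, below the −0.38 of all genes past the filter. These are 6.52% and 17.4% of the list, 3 genes of which did not pass the filter. Over all 17333 listed genes the shares were 9.48% and 17.1%, and over those past the filter 13.1% and 23.7%. The interval of the 46 lay below 1 for 30, above 1 for 3 and held 1 for 13. Of all genes past the filter 55.2% had an interval below 1 and 26.7% one above 1. The other replication genes thus lay mostly lower in the Procr-positive library, as did most genes past the filter. They did not divide as the 20 replication members did. Timeless, a replication fork protection gene, was the highest, at 24.9 RPKM from 1027 reads against 5.37 RPKM from 230 reads (4.63-fold higher in the Procr-positive library, 4.01 to 5.37). Its 1027 reads covered 56.9% of the gene and its 230 reads in the Procr-negative library 70.3%, so reads were less evenly spread in the Procr-positive library. Pola2, the second subunit of polymerase alpha, was 2.53-fold higher (2.05 to 3.14; 13.6 against 5.39 RPKM), and Pole2, a subunit of polymerase epsilon, 2.80-fold (1.89 to 4.22). Pola2 and Pole2 thus differed from their catalytic partners Pola1 and Pole, whose intervals do not overlap with theirs. The lowest were Tk1, thymidine kinase (1.33 against 5.65 RPKM; 4.25-fold higher in the Procr-negative sample, 2.49 to 7.68), Cdc7, the kinase that fires origins (4.26-fold, 2.87 to 6.51), and Gins1, a further GINS subunit (3.94-fold, 2.01 to 8.45).

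Genes that let cells enter or leave the cycle were called at shares near those of all genes, 13.1% higher and 23.7% lower. In the list of G1 cyclins, their kinases and E2F factors 2 of 15 (13.3%) were called higher and 4 (26.7%) lower, with a median of −0.23 that was positive, 0.07 to 0.15, under the 4 other scalings. Ccnd2, cyclin D2, was at 22.7 RPKM from 1207 reads against 2.26 RPKM from 125 reads, 10.02-fold higher in the Procr-positive library (8.33 to 12.1). E2f7, a repressor of the E2F family, was 6.12-fold higher there (4.79 to 7.91), and E2f6 1.63-fold (1.32 to 2.01) without a call. E2f8, the closest relative of E2f7, went the opposite way with 3 and 72 reads (23.1-fold higher in the Procr-negative sample, 7.61 to 114.8), as did E2f2 with 2 and 59 reads (28.4-fold, 7.53 to 240.3) and the E2F partner Tfdp1 (2.24-fold, 1.88 to 2.67).

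Among 15 CDK inhibitors, pocket proteins and antiproliferative genes, 3 (20%) were called higher and 4 (26.7%) lower, with a median of 0.11. Cdkn1a, the inhibitor p21, was at 527 RPKM from 9412 reads against 201 RPKM from 3717 reads, 2.63-fold higher in the Procr-positive library (2.53 to 2.73). Cdkn1c, p57, and Cdkn2d, p19, were 3.65-fold (2.76 to 4.89) and 2.86-fold (2.23 to 3.70) higher. Cdkn2a, the Ink4a and Arf gene, had 3 reads against 70 (22.5-fold higher in the Procr-negative sample, 7.39 to 111.7), its neighbour Cdkn2b 17 against 106 (6.01-fold, 3.58 to 10.7), and Ccng1, cyclin G1, was 3.91-fold higher there (3.22 to 4.78).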

How the data were processed

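Total RNA of freshly sorted mouse mammary cells gave 1 Procr-positive and 1 Procr-negative library of single Illumina reads, with groups taken from the labels' source names. Per the labels' protocols, only uniquely mapped reads were kept, on mm10. No aligner, counting tool, gene annotation or use of strand is named in the sources used here. The deposited tables hold whole-number counts of unique reads per gene and leave out genes without reads, taken as 0. RPKM was deposited by the authors and equals the count divided by the listed length in kb and by the library total in M. The coverage percent was also deposited by the authors. Of 17333 genes 15496 were listed in both libraries. Unique mapping drops reads from near-identical copies, and overlapping genes may share reads.

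With 1 library a group no test was possible. The log2 ratio of RPKM + 1 was the main scale, with a filter of 1 RPKM in at least 1 library and a call from 2-fold. Folds of single genes are ratios of reads scaled to the totals, with exact conditional binomial 95% intervals in brackets, which cover counting error only, as PCR copies are not independent molecules. Members and lists were chosen with earlier results of these data known. All members are named, with the 3 highest and 3 lowest genes of each other cell cycle list by log2 ratio, and markers were named from the 2 of their list with the highest summed RPKM. Coordinates and promoters are RefSeq, GRCm38.p6, and exon overlaps are from GENCODE on GRCm38. Overlap percents are of all GENCODE exon bases of a gene and not of its counted length. Python 3.11.15, scipy 1.17.1 and edgeR 4.0.16 (TMM and upper-quartile factors only) were used, and the calculations were tested on simulated data. Alternatives were pseudocounts of 0.1 and 0.5, no filter, a 5 RPKM filter, 4 other scalings, TPM, reads with a prior of 1, a 1.5-fold call, and a call where the interval excludes 2-fold; those without Pcna or without members of few reads were added after seeing the data.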

Additional observations from a re-analysis of the deposited data

How the results depend on the processing

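Mitosis genes kept their direction under all 12 settings tried, though changes of pseudocount, filter or call rule could not alter it. The difference between the medians (−1.21) was also −1.21 without Pcna and −1.20 over members with at least 100 reads. With a 5 RPKM filter 4 of the 12 mitosis calls stood, and 8 of the 22 calls lower among other mitosis genes, 5 of 8 among other replication genes and 2 of 4 among G1 genes, because fewer genes were tested. Centring on the median of all genes gave 5 replication genes higher and 2 lower, a replication median of 0.34, 2 other replication genes, 11 other mitosis genes and 1 G1 gene lower, 1 other mitosis gene higher, medians of 0.15 (G1) and 0.49 (inhibitors), and 1644 of all genes lower. Upper-quartile, TMM and median-of-ratios scaling each gave 2 replication, 5 other replication and 2 G1 genes lower. Replication medians were then 0.24, 0.27 and 0.28 and inhibitor medians 0.44, 0.47 and 0.49. The G1 median was 0.11 with TMM and 0.12 with median-of-ratios, and 1929 and 1895 of all genes were lower. These scalings raise every ratio by construction. A pseudocount of 0.1 and a prior of 1 read each gave 5 replication genes higher and 13 other replication genes lower, and the prior gave medians of −2.22 (mitosis) and −1.89 (other mitosis). A call from 1.5-fold gave 5 replication genes higher, 21 other replication and 34 other mitosis genes lower and 1 other mitosis gene higher, with 2507 of all genes higher and 5124 lower. Where the interval had to exclude 2-fold, 2 G1 genes were lower. No paired analysis was possible because there is 1 library a group, and for the same reason no library could be left out. Depth limits the mitosis genes most, with 3 to 250 reads each in the Procr-positive library.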

Other observations

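Cdkn1a and Pcna kept the same proportion in both libraries, with a Cdkn1a level of 1.64 times that of Pcna by RPKM in the Procr-positive and 1.64 times in the Procr-negative library, although both were more than 2-fold higher in the former. This pair was chosen after its values were seen and has no replicate check.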
